A study of Rattus norvegicus with 145 samples.

Results

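Expression of 9 genes of nitrogen disposal was examined in the livers of rats gavaged with acetamide, a small amide found in foods. The genes were named for their place in these pathways, with earlier results of these data known. They comprised the 6 urea cycle genes Cps1, Otc, Ass1, Asl, Arg1 and Nags and the 3 amino acid catabolism genes Tat, Tdo2 and Hpd, out of 17337 genes in the deposited tables. RNA-Seq read counts were available for 145 male and female Wistar rats in 29 groups of 5, 1 liver (left lobe) library per rat. Rats are numbered by the replicate field of their labels, which differs from the number in the title for some groups of experiment A. In experiment A, male Hsd:WI rats aged 9 to 10 weeks were gavaged for 7 days at 0, 30, 100 and 300 mg/kg/day (mkd), and at 1000 mkd. In experiment B, male and female Crl:WI rats aged 8 to 10 weeks received 0, 300, 500, 750, 1000 or 1500 mkd for 7 or 28 days. The vehicle was water in every group, the treated groups carried no other agent, and no genetic modification was made. Livers were taken on day 8 or day 29, in experiment A after an overnight fast and in experiment B a day after the last gavage, with tissue collected as in experiment A and animals killed in random order. The study lists fasting body weights at the end of treatment for both experiments. Experiments A and B differed in stock, supplier and age, so these cannot be told apart in any contrast between them. The 5 vehicle males of day 29 carry the exposure label of the other series, while their titles, stock and age match experiment B, and they were used as its vehicle group.

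The urea cycle turns ammonia released from amino acids into urea and runs as a whole in the hepatocyte, mainly in cells around the portal vein. Cps1 makes carbamoyl phosphate from ammonia in mitochondria and needs N-acetylglutamate, the product of Nags. Otc passes the carbamoyl group to ornithine, Ass1 joins the resulting citrulline to aspartate, Asl splits argininosuccinate into arginine and fumarate, and Arg1 releases urea. Tat catalyses the first step of tyrosine breakdown, Hpd the step after it, and Tdo2 the first step of the main route of tryptophan breakdown. Transcripts of these enzymes are known to respond in liver to glucagon, glucocorticoids, fasting and dietary protein.

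The promoters of Ass1, Hpd and Asl are shown because Ass1 and Hpd were the members called lower at the highest dose both in experiment A and in females of experiment B on day 29, whereas Asl was called lower in no group. Each stretch is the 250 bases before the RefSeq transcript start on the GRCr8 assembly, 5′ to 3′ on the strand of the gene, which is the plus strand for all 3, and capitals mark the motif matches.
Ass1 promoter (chr3:35149480-35149729): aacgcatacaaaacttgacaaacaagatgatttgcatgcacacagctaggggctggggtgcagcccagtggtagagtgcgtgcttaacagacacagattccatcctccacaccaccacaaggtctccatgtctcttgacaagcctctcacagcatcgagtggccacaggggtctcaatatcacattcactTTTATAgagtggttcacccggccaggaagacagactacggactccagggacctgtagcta
Hpd promoter (chr12:39041996-39042245): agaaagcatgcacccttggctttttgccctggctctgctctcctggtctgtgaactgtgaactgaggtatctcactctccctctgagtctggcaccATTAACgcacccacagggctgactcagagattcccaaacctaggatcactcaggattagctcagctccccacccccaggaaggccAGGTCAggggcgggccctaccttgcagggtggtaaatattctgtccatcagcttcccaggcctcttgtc
Asl promoter (chr12:32295658-32295907): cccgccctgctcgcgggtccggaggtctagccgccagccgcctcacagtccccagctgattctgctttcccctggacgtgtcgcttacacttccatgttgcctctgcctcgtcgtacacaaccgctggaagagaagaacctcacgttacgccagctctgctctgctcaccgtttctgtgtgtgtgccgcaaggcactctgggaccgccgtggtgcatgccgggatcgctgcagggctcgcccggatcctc
Promoters of 8 of the 9 members were matched by symbol, all but Arg1. The letters searched on both strands were those of the TATA box, TATAAA, the CCAAT box, the glucocorticoid receptor half-site, TGTTCT, the cAMP response element half-site, CGTCA, the nuclear receptor half-site, AGGTCA, and the HNF1 half-site, GTTAAT. Of 33469 rat promoter windows of the same length, these were present in 12.9%, 34%, 17.5%, 18.2%, 14.1% and 6.45%. The Ass1 window held TATAAA on the opposite strand, 60 bases before the start. Hpd held AGGTCA on the gene's strand and GTTAAT on the opposite strand, 69 and 154 bases before the start. None of the 6 motifs was found in the Asl, Cps1 or Otc window, while Tat held CCAAT, Tdo2 TATAAA and CCAAT, and Nags AGGTCA. No match printed here overlapped another, and a match is a description of letters only.

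The libraries held 15449700 to 39986500 reads counted on genes, and the smallest count of any member in any rat was 1042 reads, so counting error was small beside the spread between rats. Levels are in CPM, the reads of a gene as a proportion of all reads on genes, after scaling by the trimmed mean of M values (TMM), within the table of 1 sex, duration and experiment. Fold changes are log2 ratios of dose to vehicle from edgeR. A gene was called when its fold change was at least 1.5 and its false discovery rate (FDR), adjusted over all genes tested in the table, was at most 0.05. The levels of different genes were not compared, since no transcript lengths were used. All values come from whole liver RNA, in which fewer hepatocytes and less of a transcript per hepatocyte cannot be told apart. The TMM scaling centres each comparison on the typical gene, and this matters at the highest doses: with scaling by library size alone, the median gene stood at +0.58 in experiment A and +0.42 in females on day 29. Directions below are therefore relative to the typical gene of the same livers.

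In experiment A, 8 of the 9 genes had lower mean levels at 1000 mkd for 7 days than in vehicle, with a median log2 fold change of -0.72 against 0.00 for all 11323 genes tested. Hpd, Ass1, Otc and Arg1 were called lower, to between 57.5% and 66% of the vehicle level. These were 4 of 9 members, where 7.45% of all genes tested were called lower, 14% higher and 21.4% in either direction. On the FDR alone 5 members passed, all lower, beside 14.2% of all genes lower, 16.5% higher and 30.7% in either direction. Asl stood apart from its neighbours in the cycle with a log2 fold change of 0.07. When scaled by library size alone, 0 members were called lower by edgeR, and Asl was called higher at +0.68 (FDR 0.0457), while 5140 of the 11323 genes were called higher and 150 lower.

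Among the mitochondrial steps, Otc measured 399.8, 455, 446, 466 and 339 CPM in the 5 vehicle rats and 323, 106, 341, 236 and 252 CPM at 1000 mkd. The groups overlapped in 1 treated rat, and the log2 fold change was -0.74 (SE 0.21, FDR 0.011). Cps1 measured 2891, 3616, 3082, 3094 and 3088 CPM in vehicle rats and 3339, 767, 2711, 1504 and 2200.2 CPM at 1000 mkd. Only rat 1 of the treated group lay inside the vehicle range, yet the 5 treated rats were spread over more than their vehicle counterparts, with 2104 ± 1007 against 3154 ± 272 CPM (SD, n = 5), and the log2 fold change of -0.58 (SE 0.25, FDR 0.0801) missed the threshold. Nags, which supplies the activator of Cps1, had the smallest difference of the 8 lower genes. It measured 105, 122, 95.9, 137 and 96.8 CPM against 89.6, 56.2, 98.8, 64.5 and 96.3 CPM, with -0.46 (SE 0.16, FDR 0.0301), past the FDR limit but short of the fold limit.

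Among the cytosolic steps, Ass1 measured 1201, 1482, 1834, 1513 and 1273 CPM in vehicle rats and 1272, 399.7, 992, 533 and 1025 CPM at 1000 mkd. Again 1 treated rat, rat 1, lay inside the vehicle range, and the log2 fold change was -0.79 (SE 0.25, FDR 0.0178). Arg1, the last enzyme of the cycle, measured 1858, 2839.9, 1957, 1698 and 1823 CPM and 1564, 1067, 1611, 856 and 1618 CPM. Every treated rat was below every vehicle rat, with a log2 fold change of -0.60 (SE 0.22, FDR 0.0435). Asl, which acts between Ass1 and Arg1, measured 332, 447, 410.4, 476 and 617 CPM and 586, 580.2, 403, 304 and 529 CPM, and the 2 groups covered nearly the same range, with 0.07 (SE 0.26, FDR 0.858).

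Hpd had the lowest FDR of the 9 genes in experiment A. It measured 1379, 1747, 1744, 1885 and 1773 CPM in vehicle rats and 1315, 550.4, 1119, 794 and 1121 CPM at 1000 mkd, so that every treated rat was below every vehicle rat and the log2 fold change was -0.80 (SE 0.19, FDR 0.00381). Tat, the enzyme acting before Hpd in tyrosine breakdown, varied most among vehicle rats, with 914, 1879, 1070.3, 2952 and 1025 CPM. At 1000 mkd it measured 1603, 486, 768, 881 and 674 CPM and the log2 fold change of -0.83 (SE 0.40, FDR 0.121) missed the FDR limit. Tat was as low at 30 and 100 mkd, with a log2 fold change of -1.01 at 30 mkd and a difference of about the same size at 100 mkd, but was not called there. Tdo2 measured 735, 1360.1, 961, 1828 and 1227 CPM and 584, 450.5, 1204, 531 and 951 CPM, with overlapping groups and -0.72 (SE 0.31, FDR 0.0848).

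**Figure D1:**
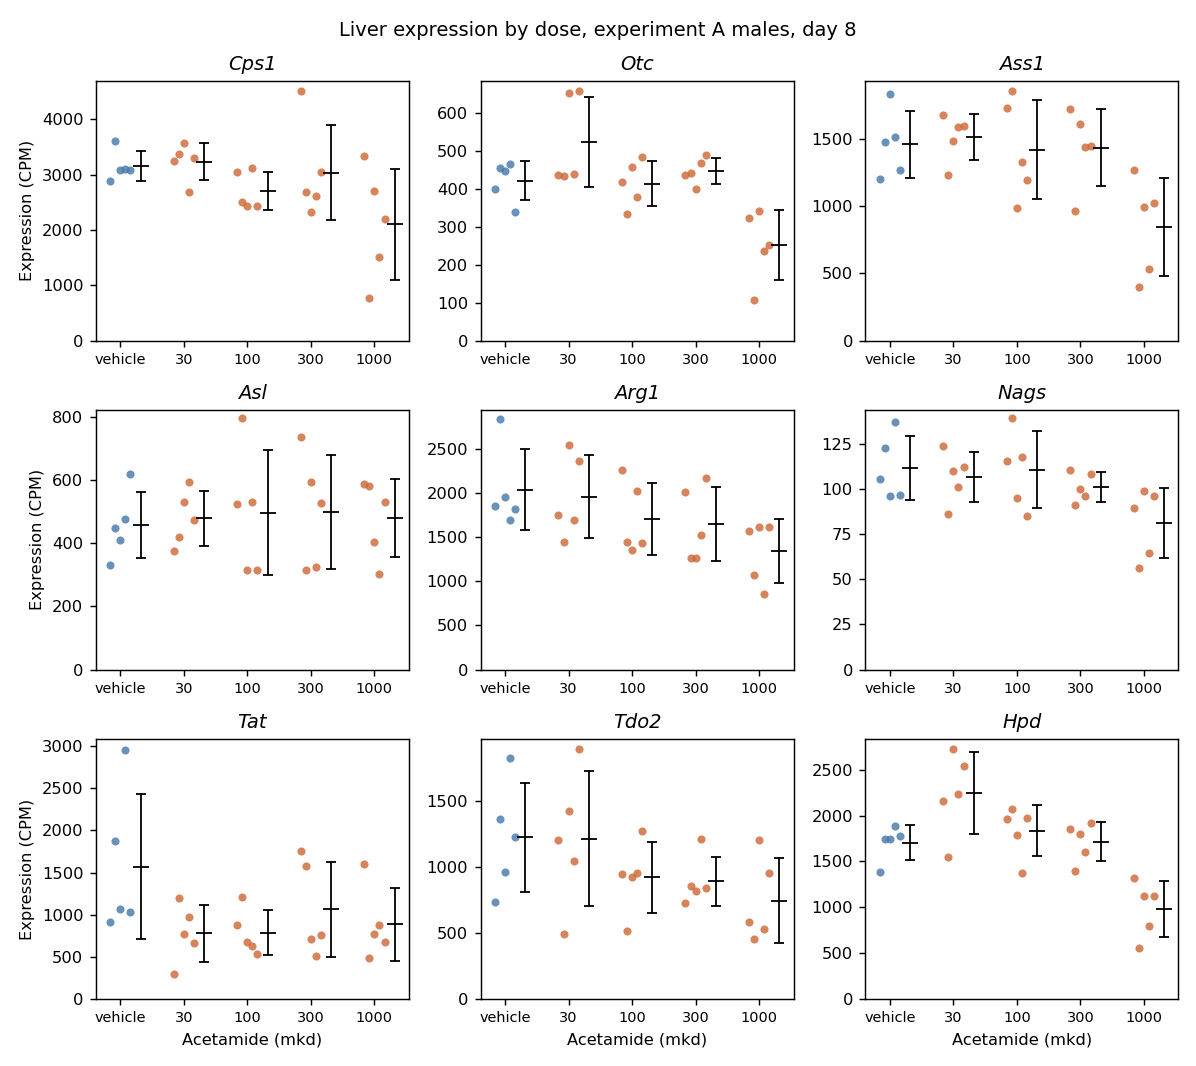
Levels of the 9 genes in experiment A, in CPM after TMM scaling, by dose in mkd. Each point is 1 rat and bars give the mean ± SD of 5 rats. The groups at 30, 100 and 300 mkd lie among the vehicle rats for most genes, while at 1000 mkd Hpd and Arg1 lie wholly below them and Asl does not. With library size scaling the falls at 1000 mkd were not called.

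No member was called at 30, 100 or 300 mkd in experiment A, where edgeR called 0 of all genes, and Tat at 30 and at 100 mkd was the only member with an unadjusted p below 0.05. DESeq2 also called 0 members at these doses. The lowest values at 1000 mkd were those of 2 animals. Rat 2 had the lowest level of the group for 7 of the 9 genes, and rat 4 for Asl and Arg1. Without rat 2, or without rat 4, 2 members were called in place of 4. Hpd was called whichever rat was left out, Otc was not called without the treated rat 2, and Ass1 was not called without the treated rat 4. Arg1 was not called without the treated rat 2 or 4, or without the vehicle rat 1, 2 or 3. TMM factors were 1.91 in rat 2, 1.41 in rat 4 and 1.47 in rat 5, against 0.856 to 0.976 in vehicle rats. Rat 5 had the lowest level of the group for 0 of the 9 genes. The summed level of 8 hepatocyte markers was 75559 CPM in rat 2, 141746 CPM in rat 4 and 130360 CPM in rat 5. It ranged from 245822 to 330611 CPM in vehicle rats and from 75559 to 240751 CPM at 1000 mkd, with 3 of the 8 markers called lower. The marker sums are after TMM scaling, and with library size scaling 0 of the 8 hepatocyte markers were called lower and 1 higher. All 7 T and NK cell markers tested were called higher, and the summed level of that list was 23.3 to 29.5 CPM in vehicle and 40.7 to 74.0 CPM at 1000 mkd. Kupffer cell and macrophage markers summed to 386 to 1210 CPM in vehicle and 971 to 1719 CPM at 1000 mkd, with 4 of 8 called higher. Of the other lists, 3 of 5 endothelial and 1 of 7 stellate markers were called higher, 2 of 3 erythroid and 2 of 2 neutrophil markers lower, and no B cell or cholangiocyte marker. Their part in the lower levels of the 9 genes was not tested. In both this group and the females of day 29, no marker list was wholly at 0, and 1 erythroid marker was at 0 in every rat.

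In female rats, 1500 mkd for 28 days gave lower mean levels of all 9 genes, with a median log2 fold change of -0.54 against 0.00 for all 11451 genes tested. Cps1, Ass1 and Hpd were called lower, to 59.9%, 65.2% and 58.4% of vehicle. These were 3 of 9 members, where 3.54% of all genes tested were called lower. With library size scaling edgeR called 0 members there, and 3353 of the 11451 genes were called higher against 74 lower. Relative to the median gene under that scaling, the values were -0.69 for Cps1, -0.61 for Ass1 and -0.78 for Hpd, close to those after TMM scaling. Both ways centre on the typical gene, so this closeness follows from the scaling and is not a separate test.

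Ass1 measured 1485, 1313, 1589, 1961 and 1479 CPM in vehicle females of day 29 and 975, 921, 1148, 810.5 and 1249 CPM at 1500 mkd. Every treated female was below every vehicle female, and the log2 fold change was -0.62 (SE 0.16, FDR 0.00986). Hpd measured 3403, 1949, 1966, 2956 and 2863 CPM and 1671, 951, 1719, 1661 and 1673 CPM, again without overlap, with -0.78 (SE 0.22, FDR 0.0144). Rat 2 was the lowest of the treated females for Hpd, as it was for Otc. Cps1 measured 2989.7, 1998, 1589, 3661 and 2843 CPM and 1247, 1387, 2289.9, 1663 and 1248 CPM, and 3 of the 5 treated females were below every vehicle female, with -0.74 (SE 0.25, FDR 0.0402).

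Otc, which follows Cps1 in the mitochondrion, measured 242, 200.3, 169.9, 399 and 377 CPM and 244, 122, 159, 227 and 199.8 CPM. The groups overlapped, and the log2 fold change of -0.54 (SE 0.22, FDR 0.0793) missed the FDR limit. The remaining 5 members were not called: Tdo2 had -0.55 (SE 0.31, FDR 0.219), Nags -0.39 (SE 0.21, FDR 0.2), Tat -0.35 (SE 0.46, FDR 0.628), Asl -0.16 (SE 0.20, FDR 0.611) and Arg1 -0.13 (SE 0.21, FDR 0.696). Arg1 was thus called in the males of experiment A but not here, where its treated females measured 642, 1275, 1146, 596 and 819 CPM around vehicle values of 1076, 922, 893, 1054 and 961 CPM.

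On day 29 in females, all 9 fold changes were negative at 300, 500 and 750 mkd after TMM scaling, against the same vehicle group. In that group rats 4 and 5 had TMM factors of 0.774 and 0.735, and the others 0.932 to 1.02. With library size scaling the sign turned for Nags at 300 mkd (0.040) and for Asl at 750 mkd (0.076). At 500 mkd it turned for Ass1 (0.028), Arg1 (0.15) and Nags (0.12). No member was called at 300, 500, 750 or 1000 mkd in these females. The nearest was Cps1 at 750 mkd, with 1798, 1369, 965, 1094 and 1412 CPM and -0.98 (SE 0.26, FDR 0.0834), and 4 of these 5 females lay below every vehicle female. DESeq2 called Cps1 there (FDR 0.0165), and so did edgeR without vehicle rat 3 (FDR 0.0289). Tdo2 had -0.91 (SE 0.31, FDR 0.103) at 1000 mkd, with 629, 692, 549.7, 452 and 364 CPM against 1093, 1056, 412, 1530.0 and 959 CPM in vehicle, and was called without vehicle rat 3 (FDR 0.0332). Asl was the exception in direction at 1000 mkd, with 1634, 1978, 1219, 1422 and 1601 CPM against 991, 1025, 1376, 1312 and 1137 CPM. Of these females 4 exceeded every vehicle female, and the log2 fold change of 0.43 (SE 0.20, FDR 0.245) was not called, whereas with library size scaling it was +0.70 (FDR 0.0474).

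**Figure D2:**
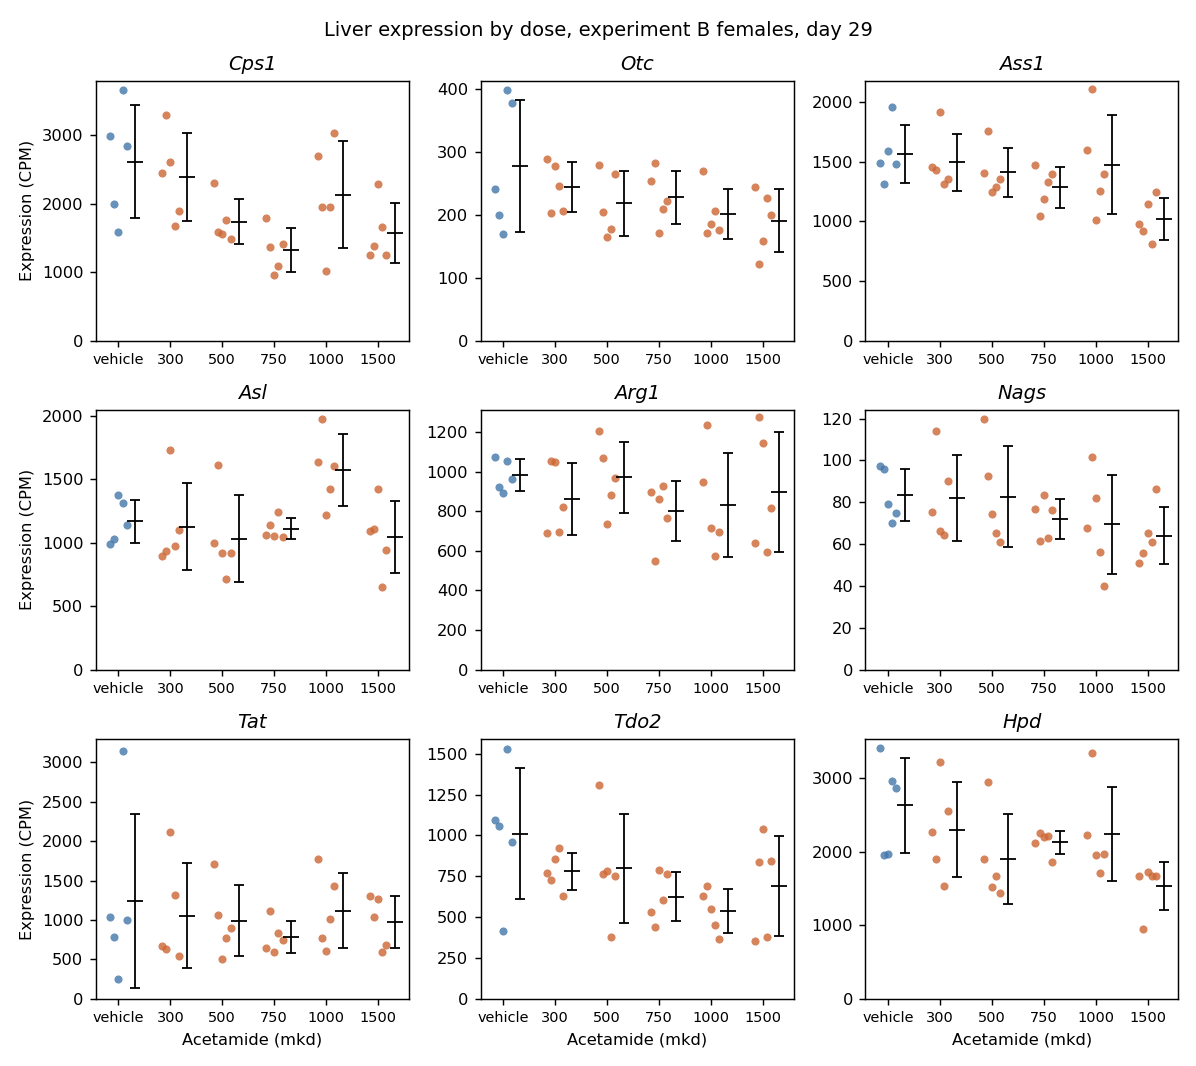
Levels of the 9 genes in females on day 29, in CPM after TMM scaling, by dose in mkd. Each point is 1 rat and bars give the mean ± SD of 5 rats. Ass1 and Hpd at 1500 mkd lie wholly below the vehicle females, and Asl at 1000 mkd lies mostly above them. With library size scaling no member was called lower.

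These female results also rested on few animals. Without the 1500 mkd rat 2 no member was called, without the 1500 mkd rat 4 only 1 was, and without vehicle rat 1 or vehicle rat 4 only 1 was. Cps1 was lost without any of 7 single rats, and Hpd without vehicle rat 1 or the 1500 mkd rat 2. Ass1 kept its FDR but fell short of the fold limit without vehicle rat 4 or without the 1500 mkd rat 2 or 4. The 1500 mkd rat 2 had a TMM factor of 1.45, against 0.735 to 1.02 in vehicle females, and the lowest hepatocyte marker sum of its group. It was lowest for 2 of the 9 genes. Rat 4 was lowest for 4, with a factor of 1.11 and a hepatocyte sum of 172585 CPM. Rat 3, with a factor of 1.25, was highest for 4. Over the group the hepatocyte sum was 89250 to 191680 CPM, against 194838 to 373430 CPM in vehicle, with 1 of 8 markers called lower and 1 higher. With library size scaling 0 hepatocyte markers were called lower and 1 higher. Kupffer cell and macrophage markers were called higher for 3 of 8 and T and NK cell markers for 2 of 6 tested. Of the other lists, 2 of 5 endothelial, 1 of 4 cholangiocyte and 1 of 7 stellate markers were called higher, 3 of 3 erythroid markers lower, and no B cell or neutrophil marker. Their part in the values of the 9 genes was not tested.

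After 7 days in females, edgeR called no member at any dose, although all 9 fold changes were negative at 750 and at 1500 mkd after TMM scaling. With library size scaling Asl (0.25), Arg1 (0.28) and Nags (0.23) were positive at 750 mkd, where the median gene stood at 0.30. At 1500 mkd 4 members had an unadjusted p below 0.05, DESeq2 called Ass1 and Tdo2, and 0.705% of the 11497 genes tested were called in either direction by edgeR. Tdo2 measured 1607, 760.0, 693, 929.7 and 874 CPM in vehicle females, 384, 799, 367, 371 and 326 CPM at 1000 mkd and 666, 364, 291, 314 and 579.9 CPM at 1500 mkd. All 5 females at 1500 mkd were below every vehicle female, and the log2 fold changes were -1.11 (SE 0.33, FDR 0.0945) at 1000 mkd, where 1.37% of genes were called, and -1.13 (SE 0.33, FDR 0.0831) at 1500 mkd. These were the largest differences of any member in the study and missed the FDR limit, although DESeq2 called Tdo2 at 1000 mkd as well (FDR 0.0296) and so did edgeR without replicate 2 of all groups (FDR 0.028). Ass1 measured 1234, 1548, 1317, 1244 and 849 CPM in vehicle and 991, 670.2, 837, 666 and 809 CPM at 1500 mkd, 4 of 5 below the vehicle range, with -0.64 (SE 0.18, FDR 0.0722). Cps1 was 2862, 3679, 3308, 4227 and 2719 CPM in vehicle and 2225, 1888, 2433, 2325 and 2516 CPM at 1500 mkd, without overlap, and its value was -0.56 (SE 0.23, FDR 0.246). Hpd and Otc had their lowest mean levels at 750 mkd, with -0.70 (SE 0.23, FDR 0.137) and -0.66 (SE 0.26, FDR 0.245).

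Without the 1500 mkd rat 1, 2 members were called in females on day 8. Mean levels of the remaining members over the 6 dose groups ranged from 809 to 1217 CPM for Asl, from 831 to 959 CPM for Arg1, from 65.5 to 83.1 CPM for Nags and from 578 to 970.2 CPM for Tat, and none of these was called at any dose. No marker list held a called gene at 1500 mkd.

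In male rats of experiment B no member was called at any dose on either day. On day 8, 0.177% of the 11304 genes tested were called at 1500 mkd, and edgeR and DESeq2 called 0 members, with 2 at an unadjusted p below 0.05. Those were Otc and Asl, in opposite directions. Otc measured 306, 291, 404, 337 and 439.7 CPM in vehicle males and 261, 209, 269.7, 201 and 311 CPM at 1500 mkd, 4 of 5 below the vehicle range, with -0.51 (SE 0.18, FDR 0.215). Asl measured 654, 557, 378, 544 and 340.4 CPM and 661, 927, 607, 726 and 729.9 CPM, 4 of 5 above the vehicle range, with 0.56 (SE 0.20, FDR 0.221). Hpd, the member with the lowest FDR in experiment A, had a log2 fold change of -0.0017 (SE 0.19, FDR 0.998) here, with means of 1006 ± 208 CPM in vehicle and 1004 ± 164 CPM (SD, n = 5). At 1000 mkd, the dose shared with experiment A, Hpd measured 904, 732, 1631, 1126 and 1000.0 CPM against 1309, 1078, 1020.1, 820.1 and 801 CPM in vehicle, with 0.10 (SE 0.19, FDR 0.972). No marker list held a called gene at 1500 mkd on day 8.

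On day 29 in males, 4.91% of the 11279 genes tested were called at 1500 mkd and 0 of 9 members were by edgeR or DESeq2, none of them at an unadjusted p below 0.05. At 750 and 1000 mkd, where 0.78% and 2.76% of genes were called, Cps1 was the member with the lowest p. It measured 2655, 2233, 2637, 2248 and 2716 CPM in vehicle males, 1848, 1982, 1805, 1573 and 1281 CPM at 750 mkd, all below the vehicle range, and 2291, 1931, 1407, 1935 and 1358 CPM at 1000 mkd, 4 of 5 below. Its log2 fold changes of -0.56 (SE 0.21, FDR 0.127) and -0.49 (SE 0.21, FDR 0.149) were not called. At 1500 mkd Cps1 spread widely, with 1894, 2211, 4081, 1951 and 1530.5 CPM.

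The value of 4081 CPM belonged to rat 3, which had the lowest level of its group for 7 of the other 8 members, all but Nags. The study also set this male aside as an outlier for Ki67 labelling, a proliferation marker, and left it out of its dose modelling of Ki67. For this animal the study reports no rise in the plasma enzymes ALT and AST, the mitotic index or liver weight. Rat 3 measured 479 CPM of Ass1, 425 CPM of Arg1 and 219 CPM of Tdo2. The other 4 males ranged from 1458 to 2201 CPM of Ass1, from 1365 to 1883 CPM of Arg1 and from 654 to 1051 CPM of Tdo2. The TMM factor of rat 3 was 1.49 and its hepatocyte marker sum 105150 CPM, against 176911 to 217260 CPM in the other 4 and 190430 to 241426 CPM in vehicle, and 1 of 8 hepatocyte markers was called higher over the group. Without it, 0 members were called at 1500 mkd, while Cps1 passed the threshold at 750 mkd. Over the 6 dose groups of day 29, mean levels ranged from 275 to 391 CPM for Otc, 924 to 1431 CPM for Ass1, 435 to 774 CPM for Asl and 1167 to 1579 CPM for Arg1. The ranges were 87.3 to 99.6 CPM for Nags, 948 to 1593 CPM for Tat, 687 to 1094 CPM for Tdo2 and 1338 to 1559 CPM for Hpd, and none of these 8 was called at any dose.

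**Figure D3:**
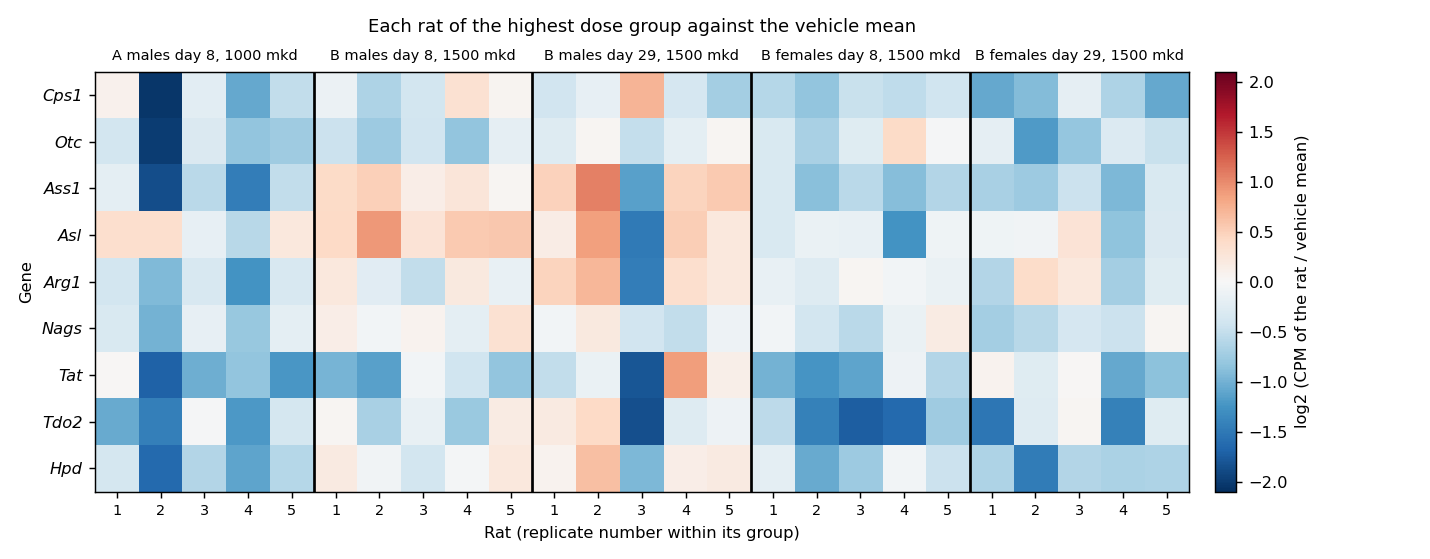
Each rat at the highest dose against the mean of its vehicle group, as the log2 ratio of CPM after TMM scaling, for 9 genes in rows and 25 rats in columns, 5 per table. Blue cells are lower and red cells higher than vehicle. Rats 2 and 4 of experiment A are low in nearly all rows, while rat 3 of the day 29 males is low in every row but that of Cps1.

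Whether the response to acetamide differed between groups was tested as the difference of log2 fold changes in a joint fit. Only 1 member passed the FDR limit in any of the 5 differences. At 1000 mkd for 7 days in males, the only matched dose, sex and duration at which experiment A had called genes, the Hpd log2 fold change of experiment A minus that of experiment B was -0.92 (SE 0.28, FDR 0.033), 95% confidence interval -1.47 to -0.36. All 9 differences were negative, and 7.48% of the 11579 genes tested passed the same limit. The differences of -0.86 (SE 0.35, FDR 0.112) for Ass1 and -0.68 (SE 0.33, FDR 0.18) for Cps1 did not pass. The Hpd difference was not called with library size scaling, and it did not pass without replicate 2, 3, 4 or 5 of all groups. Without replicate 1, both Hpd and Ass1 passed. Stock, supplier, age and study cannot be told apart in this difference.

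No difference between the responses of females and males of experiment B passed the limit for any member. At 1500 mkd on day 8, 0 of 9 differences passed with edgeR, with 3 at an unadjusted p below 0.05 and 0% of all genes passing. On day 29 it was 0 of 9, with 2 at an unadjusted p below 0.05 and 0.0688% of all genes. The difference for Hpd on day 29, female minus male, was -0.85 (SE 0.30, FDR 0.148), 95% confidence interval -1.45 to -0.25, and for Ass1 -1.03 (SE 0.37, FDR 0.155), interval -1.78 to -0.29. The calls in females on day 29 were therefore not shown to be particular to females. Between day 29 and day 8, no difference in response passed in males or females by edgeR, with 0 at an unadjusted p below 0.05 in both and 0% and 0.00858% of all genes passing. The difference for Ass1 in females, day 29 minus day 8, was 0.02 (SE 0.24, FDR 0.989), interval -0.46 to 0.50. DESeq2 also passed 0 of 9 in each of these 4 differences.

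**Figure D4:**
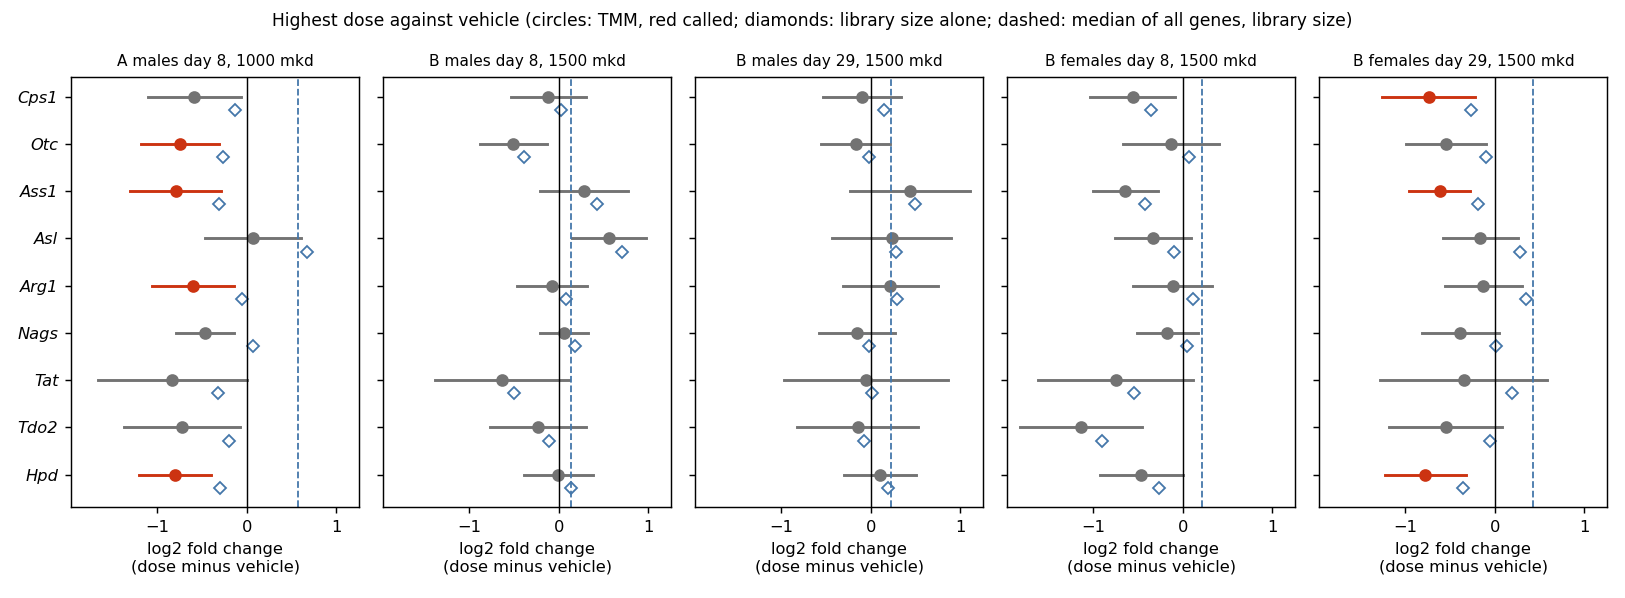
Log2 fold change of the 9 genes at the highest dose against vehicle in the 5 tables. Circles with lines give the TMM-scaled estimate and its 95% confidence interval, red where the gene was called. Diamonds give the estimate with library size alone, and the dashed line is the all-genes median under that scaling. The diamonds sit to the right of the circles, most in experiment A and in females on day 29, by about the shift of the median gene.

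Dose trends were fitted across all groups of a table as a log2 change per 1000 mkd. In experiment A 7 of the 9 genes passed the FDR limit, all falling, where 22.4% of all genes fell. Hpd had the steepest of these at -1.01 (SE 0.18, FDR 7.28e-05), followed by Otc at -0.88 (SE 0.20, FDR 0.000712) and Ass1 at -0.83 (SE 0.21, FDR 0.0025). Tdo2, Cps1, Arg1 and Nags fell by between 0.64 and 0.45, and Tat with -0.31 (SE 0.38, FDR 0.525) and Asl with 0.02 (SE 0.21, FDR 0.944) did not pass. Without the 1000 mkd group 0 of the 9 trends passed by edgeR, so the trends in experiment A rested on that dose.

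Trends in the females of day 29 passed for Ass1 at -0.35 (SE 0.10, FDR 0.0111), Hpd at -0.41 (SE 0.13, FDR 0.0233), Otc at -0.35 (SE 0.12, FDR 0.0337) and Cps1 at -0.44 (SE 0.17, FDR 0.0473), 4 of 9 where 11.9% of all genes fell. On day 8 those of Tdo2, -0.77 (SE 0.19, FDR 0.0166), and Ass1, -0.41 (SE 0.11, FDR 0.0217), passed, 2 of 9 where 1.69% of all genes fell. Without the highest dose, Tdo2 was the only trend to pass in either table, at -1.16 (FDR 0.0142) on day 8 and -0.89 (FDR 0.0242) on day 29. In males of experiment B 0 of 9 trends passed by edgeR on either day, where 0.54% and 10.6% of all genes fell. DESeq2 passed 1, Otc on day 8. Without the 1500 mkd group the Cps1 trend in males on day 29 passed at -0.60 (FDR 0.0122). Direction again depended on the scaling: with library size alone, Otc and Hpd still fell in experiment A and Tdo2 in females on day 8, but Asl rose in experiment A and in females on day 29.

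The vehicle groups of experiment B allowed the sexes to be compared without acetamide, in a joint fit with CPM on 1 scale. On day 8, 4 members differed between the sexes. Hpd and Asl were higher in females, where 4.15% of all genes were, and Otc and Arg1 lower, where 4.21% were. Otc measured 324, 309.7, 427, 358 and 466 CPM in males and 240.3, 174, 218, 244 and 251 CPM in females, without overlap, with a log2 difference, female minus male, of -0.74 (SE 0.23, FDR 0.026). Arg1 measured 1975, 1459, 1566, 1318 and 1636 CPM and 1018, 834, 790.2, 759.9 and 822 CPM, also without overlap, with -0.91 (SE 0.21, FDR 0.00141). Asl, the step before Arg1 in the cycle, differed in the opposite direction and measured 692, 593, 399, 578 and 360.4 CPM in males and 999, 1261, 871, 976 and 689.8 CPM in females, with 1 female inside the male range and 0.87 (SE 0.21, FDR 0.0024). Hpd measured 1385, 1149, 1077, 871 and 848 CPM and 2138, 1839, 1486, 1577 and 1719 CPM, every female above every male, with 0.72 (SE 0.21, FDR 0.0181). Leaving out the same replicate of both sexes, Otc was not called without replicate 3 or 5 and Hpd not without replicate 4 or 5.

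On day 29, Hpd was the only member called, in the same direction as on day 8. It measured 1273, 1491, 1391, 1482 and 1365 CPM in males and 3351, 1856, 1891, 2832 and 2791 CPM in females, without overlap, with 0.86 (SE 0.21, FDR 0.00292), where 6.23% of all genes were called higher in females, and it was not called without replicate 1 of both sexes. Asl had 0.72 (SE 0.28, FDR 0.0628), with 3 of 5 females above every male, and Arg1 -0.36 (SE 0.24, FDR 0.305), with 3 of 5 below. Otc, called on day 8, had -0.29 (SE 0.21, FDR 0.349) on day 29. Whether the sex differences changed between the days was not tested.

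**Figure D5:**
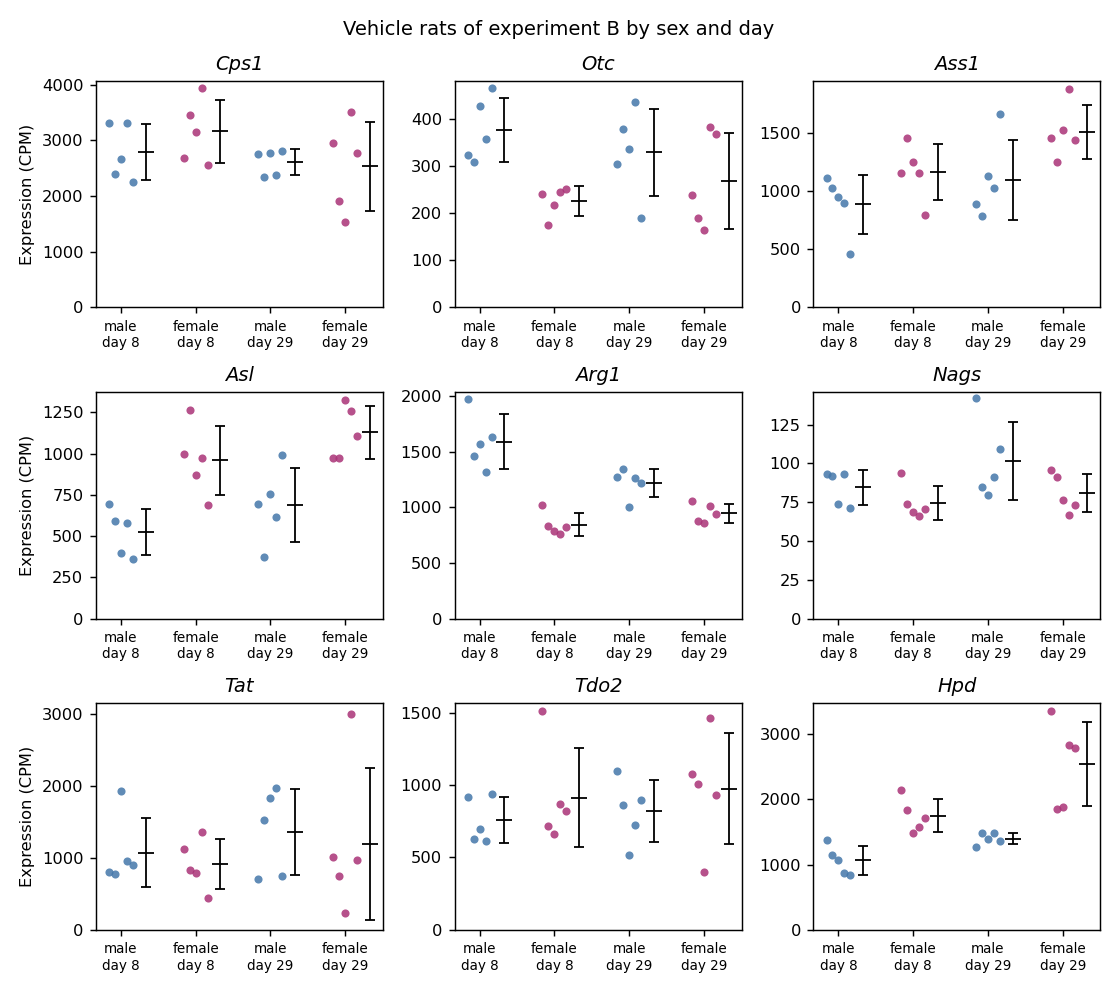
Levels of the 9 genes in vehicle males (blue) and vehicle females (purple) of experiment B on day 8 and day 29, in CPM on a joint TMM scale. Points are rats and bars the mean ± SD of 5 rats. Hpd is higher in every female than in every male on both days, and Otc and Arg1 are lower in every female on day 8.

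The rest of amino acid catabolism was described with 7 lists that named 80 genes and gave 75 tested ones. In experiment A at 1000 mkd, 35 of the 75 were called lower and 1 higher, with a median log2 fold change of -0.61, beside 7.45% lower among all genes. The counts of lower genes were 4 of 12 for urea cycle transport and ammonia handling, 3 of 6 for phenylalanine and tyrosine, 4 of 9 for tryptophan, and 6 of 13 for transaminases, serine and proline. They were 4 of 9 for sulfur amino acids, 6 of 13 for histidine, glycine and lysine, and 8 of 13 for branched-chain amino acids. In females at 1500 mkd on day 29, 13 of 75 were called lower and 0 higher by edgeR, 14 and 0 by DESeq2, with a median of -0.39 by edgeR, beside 3.54% lower and 9.55% higher among all genes. There the counts over the 7 lists in the same order were 1, 1, 2, 2, 3, 3 and 1. Acmsd, which diverts tryptophan carbon away from NAD synthesis, was the gene that rose in experiment A, with 1.23 (FDR 0.011). With library size scaling 6 of the 75 were called lower and 3 higher in experiment A, and 2 lower and 6 higher in females on day 29.

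Of the listed genes called at the highest dose in at least 2 tables, the first 14 by mean absolute log2 fold change are named here. Mccc2, ranked 15, also met this rule and is not described. Oat, which links ornithine of the urea cycle to glutamate and proline, had the largest mean absolute log2 fold change of them over the tables, although Cdo1 fell further in experiment A. Oat fell from 265 ± 105 to 107 ± 72.2 CPM in experiment A, by 1.31 (FDR 0.021), and from 370.2 ± 152 to 168 ± 74.7 CPM in females on day 29, by 1.14 (FDR 0.0124) (SD, n = 5). With library size scaling Oat was still called lower in both, at -0.88 and -0.70, as was Dao, at -0.69 and -0.63. Its value in females on day 8 was -1.20 (FDR 0.0831).

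Of the genes of tyrosine and tryptophan breakdown, Gstz1, the maleylacetoacetate isomerase, fell in both experiment A, by 0.80 (FDR 0.00648), and females on day 29, by 0.61 (FDR 0.0183). The kynurenine transaminases Kyat3 and Aadat fell too, with -1.22 (FDR 0.00198) and -0.62 (FDR 0.0368) in experiment A and -0.97 (FDR 0.0261) and -0.85 (FDR 0.00202) in females. Mat1a, which makes S-adenosylmethionine, Gnmt, which consumes it, and Cdo1, which oxidises cysteine, also fell in both. Their log2 fold changes were -0.92 (FDR 0.0129), -0.88 (FDR 0.0261) and -1.43 (FDR 0.00385) in experiment A and -0.67 (FDR 0.0324), -0.71 (FDR 0.0398) and -0.93 (FDR 0.00449) in females on day 29. All of these directions are relative to the typical gene, and none of the 14 named genes changed sign with library size scaling.

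Dao, the D-amino acid oxidase, fell in both, with -1.12 (FDR 0.0144) in experiment A and -1.04 (FDR 0.00437) in females on day 29. Ftcd of histidine breakdown had -1.06 (FDR 0.000568) and -0.64 (FDR 0.0214) in the same order, and Gcdh of lysine and tryptophan breakdown -1.04 (FDR 0.00479) and -0.82 (FDR 0.00671). Prodh2, which oxidises hydroxyproline, had -0.83 (FDR 0.00539) and -0.77 (FDR 0.00485), and Asrgl1, an asparaginase, -0.67 (FDR 0.00402) and -0.84 (FDR 0.0203). Acadsb, the short branched-chain acyl-CoA dehydrogenase of isoleucine breakdown, fell by 1.20 (FDR 0.00118) in experiment A and by 0.68 (FDR 0.0359) in males on day 29. It was the only one of the 75 called by edgeR in males of experiment B at 1500 mkd, where DESeq2 called 3 lower on day 29.

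Of 12 regulators of these pathways, Gcgr, the glucagon receptor, was called lower in experiment A, -0.73 (FDR 0.0254), and in females on day 29, -0.63 (FDR 0.026). Ppargc1a, a coactivator of the fasting response, was called higher in females on day 29, 1.10 (FDR 0.0475). The other 10 were called in neither group. Thus 1 of 12 was lower in experiment A, where 7.45% of all genes were, and 1 was lower and 1 higher in females, beside 3.54% and 9.55%, so these counts lay near the shares of all genes. With library size scaling Gcgr was called in neither group, at -0.27 in both (FDR 0.272 and 0.279).

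Across the 120 rats of experiment B, the correlation between members after removal of each group's mean ran from negative to positive. Over the 36 pairs, log2 levels of Ass1 and Asl had the highest Pearson correlation, 0.76, followed by Arg1 and Tdo2, 0.64, and Ass1 and Hpd, 0.61. The lowest were Nags and Tat, -0.38, and Otc and Asl, -0.24. Likeness to 11115 other genes was taken with only the mean of each table removed, so that dose is included. Among those most like the mean of the 6 urea cycle members were Mat1a (0.80), Gls2 (0.78), Nnmt (0.70) and Slc38a4 (0.69). Tat was most like Pck1 (0.78), Noct (0.78) and Slc38a2 (0.72), Tdo2 most like Ivns1abp (0.78), Prr16 (0.75) and C4bpb (0.72), and Hpd most like Tex264 (0.80), Gstz1 (0.79) and Adhfe1 (0.78). These points share libraries, depth and scaling factors, and the correlations are descriptions.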

How the data were processed

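Per the paper's methods, RNA of the left lobe was made into stranded mRNA libraries, reads were trimmed with Trimmomatic, aligned to the Rn6 genome with Bowtie2 and counted per gene with HTSeq. Versions and the strand setting are not given in the sources used here. The authors deposited 5 tables of raw read counts, 1 per experiment, sex and duration, and 145 count columns were mapped to rats by their labels. HTSeq summary lines, 35.5% to 67.1% of the total in experiment B, were left out of library sizes. Each rat was 1 replicate. Counts were tested with edgeR 4.0.16 (R 4.3.3), by the quasi-likelihood test after TMM scaling and filterByExpr, with all dose groups of a table in 1 fit. Joint fits of 2 tables gave the differences between responses and sexes. Genes were called at a fold change of 1.5 and a Benjamini-Hochberg FDR of 0.05, trends and differences at the FDR alone. DESeq2 1.42.0 and the other alternatives are in the closing section, and the tests were checked on simulated counts with known changes. The 9 members and all gene lists were chosen with earlier results of these data known. Of the listed genes, those called at the highest dose in at least 2 tables were named, up to 14, and correlations used log2 CPM with a prior count of 2. A result for 1 gene is not reported here.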

Additional observations from a re-analysis of the deposited data

Results flagged for a closer look

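In 24 of 261 groups of 5 rats, 1 rat of a member stood far from the other 4 by Dixon's criterion, which compares the gap to its nearest neighbour with the whole range. Chance alone marks about 1 in 20 such groups.

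In experiment A these were vehicle rat 2 with 3616 CPM of Cps1 and 2839.9 CPM of Arg1, vehicle rat 1 with the lowest Hpd of its group at 1379 CPM, and rat 4 at 300 mkd with 1212 CPM of Tdo2. In males on day 8 they were vehicle rat 3 with 1827 CPM of Tat and rat 1 at 500 mkd with 1480.1 CPM of Tdo2 and 1984 CPM of Hpd. In males on day 29 they were rat 2 at 750 mkd with 2769.8 CPM of Ass1, rat 1 at 1000 mkd with the lowest Nags at 43.7 CPM, and rat 3 at 1500 mkd with 4081 CPM of Cps1.

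Among females on day 8, vehicle rat 1 had the highest Arg1, Nags and Tdo2 of its group, at 1083, 99.8 and 1607 CPM. At 300 mkd rat 4 had 402 CPM of Otc and 1479 CPM of Tdo2, and rat 1 the lowest Nags at 67.2 CPM. Tdo2 was also high in rat 2 at 750 mkd, with 865 CPM, and in rat 2 at 1000 mkd, with 799 CPM. Tat was high in rat 1 at 1000 mkd, with 2106 CPM, and Asl low in rat 4 at 1500 mkd, with 429 CPM. Among females on day 29, vehicle rat 4 had 3144 CPM of Tat, rat 3 at 300 mkd had 1915 CPM of Ass1 and 1727 CPM of Asl, and rat 2 at 1500 mkd had the lowest Hpd at 951 CPM.

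The Hpd response at 1000 mkd for 7 days in males differed between the experiments, with a log2 fold change of experiment A minus experiment B of -0.92 (FDR 0.033 in edgeR, adjusted over 11579 genes). It was 1 of 9 members to pass, beside 7.48% of all genes. The call was lost with library size scaling and without most single replicates. The direction of this difference is relative to the typical gene of each experiment.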

How the results depend on the processing

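Of 990 values of members at the highest dose under an alternative, 870 kept their direction and side of the threshold, 49 lost it, 20 gained it and 51 changed sign. Only members called in the reported fits could lose it, so the pooled count understates how often calls were lost. In females on day 29 Cps1 was lost in 14 of 22 alternatives, Ass1 in 7 and Hpd in 5. In experiment A Arg1 was lost in 12 of 22, Otc and Ass1 in 5 each and Hpd in 1. The setting that moved most was scaling by library size alone. Members called at the highest dose numbered 4 in experiment A and 3 in females on day 29 in the reported fits. With library size alone they were 1 (Asl, higher) and 0, and in fits of only vehicle and the highest dose 1 and 0. Without single rats or replicates, the counts were 1 to 6 members in experiment A, 0 to 2 in females on day 8 and 0 to 4 in females on day 29, and DESeq2 called 2 in females on day 8. At lower doses, 7 of 399 fits called any member. The cause of these changes was not tested.

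With library size alone the sign turned for Nags in experiment A (0.076), for Cps1 (0.022), Arg1 (0.083) and Hpd (0.14) in males on day 8, and for Cps1 (0.15) and Tat (0.020) in males on day 29. It also turned for Otc (0.070), Arg1 (0.11) and Nags (0.042) in females on day 8 and for Asl (0.28), Arg1 (0.34), Nags (0.0089) and Tat (0.20) in females on day 29. Hpd in males on day 8, at -0.0017, became 0.0021 without a filter, 0.017 with at least 10 counts in every rat and 0.0070 in the fit of only vehicle and 1500 mkd. Leaving out replicates, Asl in experiment A ranged from -0.10 to 0.23. In males on day 8 Arg1 ranged from -0.21 to 0.020, Nags from -0.065 to 0.16 and Hpd from -0.14 to 0.11. In males on day 29 Cps1 ranged from -0.46 to 0.053, Asl from -0.17 to 0.46, Tat from -0.42 to 0.26, Tdo2 from -0.35 to 0.022 and Hpd from -0.093 to 0.23. For females on day 29 Asl ranged from -0.30 to 0.019, Arg1 from -0.33 to 0.014 and Tat from -0.71 to 0.49. None of these was called in the reported fit.

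Of the dose trends, 7 passed in experiment A, 3 with library size alone, 0 without the 1000 mkd group and 3 to 7 without a replicate, with 3 each without replicate 2 or 4. In males, DESeq2 passed 1 on day 8, and on day 29 1 passed without the highest dose and 0 to 1 without a replicate. On day 8 in females, 1 passed with library size alone, 1 without the highest dose and 0 to 2 without a replicate, none without replicate 2, 3 or 4. On day 29 in females, 1 passed with library size alone, 1 without the highest dose and 0 to 4 without a replicate, none without replicate 4. The 1 member whose response differed between experiments became 0 with library size alone and 0 to 2 without a replicate. The vehicle sexes differed in 2 to 4 members on day 8 and 0 to 1 on day 29 without a replicate. Of the 75 pathway genes, those lower in experiment A fell from 35 to 6 with library size alone, a setting chosen for these lists after seeing the data, and in females on day 29 from 13 to 2. In males on day 29 they were 3 with DESeq2 and 0 with library size alone, and in females on day 8 4 with DESeq2.

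Replicate numbers were not found to pair rats: the median correlation of rats with the same number in the labels' replicate field, after removal of group means, lay between -0.023 and 0.032 over the 5 tables. With the replicate number as a block, Cps1 (FDR 0.0485) and Tdo2 (FDR 0.0428) were also called in experiment A, Cps1 in females on day 29 was not (FDR 0.0662), Hpd in males on day 8 was 0.0073, and the vehicle sexes differed in 1 member on day 8 and 0 on day 29, by edgeR.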
